A study of Mus musculus with 6 samples.

Results

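Basement membranes are thin sheets of extracellular matrix that underlie epithelia and endothelia and wrap muscle, fat and Schwann cells. Their first layer is a network of laminins, which are trimers of an alpha, a beta and a gamma chain encoded by separate genes. Nidogens bind the laminin gamma chain on one side and type IV collagen on the other, and so tie both networks together. In the adrenal gland, basement membrane surrounds the dense capillary network and cords of steroid-producing cells. The laminin and nidogen genes Lama1, Lama2, Lama4, Lama5, Lamb1, Lamb2, Lamc1, Nid1 and Nid2 were measured in whole adrenal glands on Illumina bead arrays, and all probes whose symbol equals one of these names were taken. Lamb1 is listed on the array under its older symbol Lamb1-1. These 9 of the 28908 gene names on the array had 17 of the 45281 probes.

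The mice were B6.FVB females, adult and virgin. The labels give 3 samples of Gata6 knockout mice (cKO, a conditional deletion per the design text) and 3 samples of normal mice (Control). Gata6 encodes a DNA-binding protein of the GATA family. What drives the deletion, and how many animals gave each sample, is unstated in the labels, so p-values measure only the spread among the samples and this may be technical. The comparison addresses how loss of Gata6 bears on transcript levels in the gland.

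Between 18314 and 19459 probes were detected per array at a detection p-value under 0.05, and 19210 probes for 13327 genes were detected on at least 3 of the 6 arrays and tested. Values below are log2 signals after background correction and quantile normalization, and differences are cKO minus Control. Probes differ in how well they hybridize, so levels are compared between arrays for one probe and not between probes. The Gata6 probe read 11.99, 12.06 and 12.31 on the cKO arrays and 11.80, 11.66 and 11.71 on the Control arrays, a difference of 0.40 (SE 0.10) that did not pass (limma, adjusted p = 0.0545) and goes against the label. It passed in 3 of 17 alternatives, with a robust variance, with array weights and without cKO replicate 1 (adjusted p = 0.0472, 0.0330 and 0.0450), and the range over all 17 was 0.0330 to 0.315. The probe may lie outside the deleted part, in which case it checks nothing. Its place is not known here, so each direction below holds for the arrays that carry the cKO label. Adrenal cortex markers fit the labelled tissue: all 8 listed, Star and Cyp11b1 among them, had a tested probe, whereas of 5 kidney markers 0 had one and 4 were detected on 0 arrays. In whole glands, fewer cells of a type and less RNA per cell cannot be told apart.

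Of the laminin and nidogen genes, the alpha chain gene Lama2 rose on the cKO arrays, and it was the one with a probe past the threshold. Its promoter region is shown because GATA factors bind the core GATA and because it belongs to the chain that changed; that of Lama5, an alpha chain gene whose probe did not pass, is shown for comparison. Both windows run 5′ to 3′ from 250 bases before to 50 bases after the RefSeq start of the gene (GRCm38.p6, minus strand in both cases), and capitals mark GATA or, for the other strand, TATC.
Lama2, chr10:27616893-27617192: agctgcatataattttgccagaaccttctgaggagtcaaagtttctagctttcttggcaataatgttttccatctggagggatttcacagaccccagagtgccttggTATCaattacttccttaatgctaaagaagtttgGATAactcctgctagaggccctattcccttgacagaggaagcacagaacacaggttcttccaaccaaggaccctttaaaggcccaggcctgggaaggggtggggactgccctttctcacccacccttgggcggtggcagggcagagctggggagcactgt
Lama5, chr2:180225810-180226109: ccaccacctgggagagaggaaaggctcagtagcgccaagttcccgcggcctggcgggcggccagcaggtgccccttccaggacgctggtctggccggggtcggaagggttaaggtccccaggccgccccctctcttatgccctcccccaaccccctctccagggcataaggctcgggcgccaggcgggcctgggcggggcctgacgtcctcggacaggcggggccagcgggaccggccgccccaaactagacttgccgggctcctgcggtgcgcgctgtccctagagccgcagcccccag
The Lama2 window held 2 matches, 1 on each strand, starting at bases 108 and 141 of the window, and the Lama5 window held 0. Of 32851 windows of this length in the table, 57.9% held GATA on either strand. The longer form of the motif, which is GATA preceded by A or T and followed by A or G and so overlaps the core, was found in neither window on either strand, and 29.8% of all windows held it. Of the 9 genes, 5 had a window in the RefSeq table. Among the other three, Nid1 held 2 matches to GATA, Lamb2 held 1 and Lamb1 held 0, each with 0 matches to the longer form. The Lama2 window was 50.3% G or C and the Lama5 window 72.7%. A match is a string of letters and not a measured binding site.

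Of the 17 probes, 10 probes for 7 genes were tested. The 7 others were detected on 0 of the 6 arrays. They were all 5 probes of Lama4, an alpha chain of vascular basement membranes, the single probe of Lamb1, a beta chain found in many tissues, and 1 of the 3 Lama2 probes. Deposited signals of the Lama4 probes lay between -11.4 and 17.4, and those of the Lamb1 probe between -1.9 and 14.5, on a scale where the background had been subtracted. These probes were not well above background, which says nothing about whether a level differs between the groups.

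**Figure D1:**
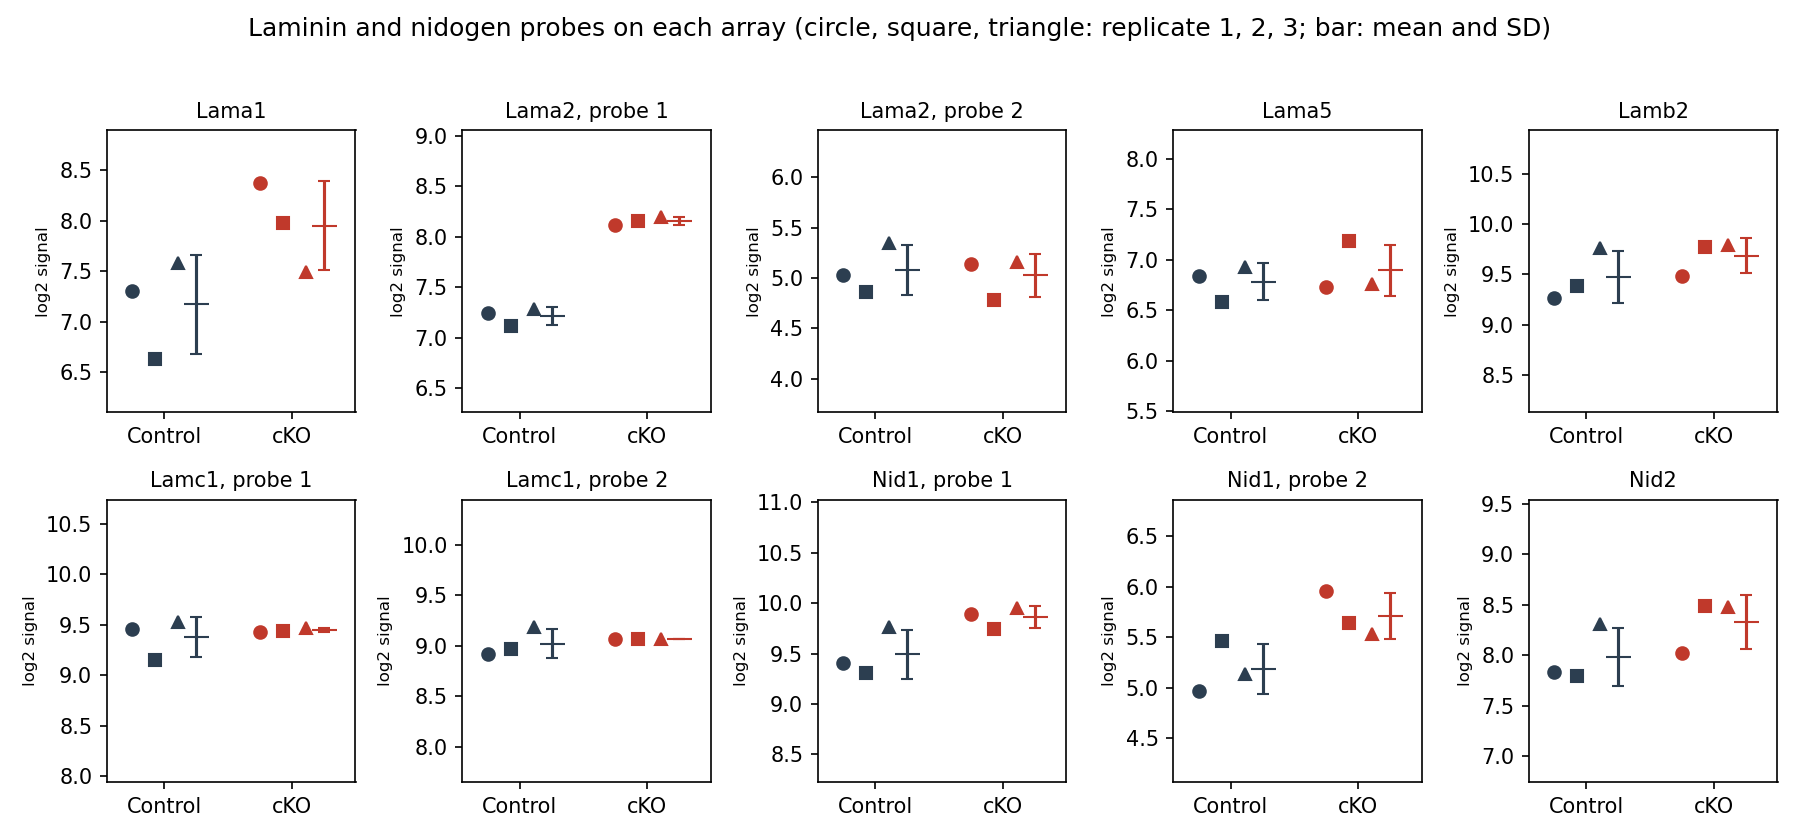
Normalized log2 signal (vertical axis, spanning 2.8 log2 units in each panel) of the 10 tested laminin and nidogen probes on the 3 Control arrays (dark) and the 3 cKO arrays (red), with the group mean and SD beside the points. The groups lie apart for probe 1 of Lama2 and, narrowly, for probe 2 of Nid1, and they overlap in the other panels.

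Among the alpha chains, Lama2 encodes the chain of the laminins around muscle fibres and Schwann cells. Its brightest probe gave deposited signals of 250.2, 274.9 and 316.6 on the cKO arrays and 126.5, 110.5 and 143.8 on the Control arrays. After normalization these were 8.12, 8.16 and 8.20 against 7.24, 7.12 and 7.28. All 3 cKO arrays lay well above the highest Control array, and the arrays of each group lay close together. The difference was 0.94 (SE 0.13), a 1.92-fold rise with a 95% interval of 1.57-fold to 2.35-fold (limma, adjusted p = 0.00495). A difference at least this large upward was seen in 2.14% of all tested probes. A dimmer Lama2 probe, detected on 2 cKO arrays and 1 Control array, read 5.14, 4.78 and 5.16 against 5.03, 4.86 and 5.35. Its groups overlapped, and its difference of -0.05 (SE 0.18, adjusted p = 0.897) was read near the background. With no further background correction this difference was -0.08. The rise of Lama2 therefore rests on 1 of its 2 tested probes, and the difference between them was not tested.

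Lama1, an alpha chain best known from embryonic basement membranes, was the least even of the set. Its probe read 8.37, 7.98 and 7.49 on the cKO arrays and 7.31, 6.63 and 7.58 on the Control arrays. The cKO replicate 3 array lay below the highest Control array, and Control replicate 2 was the lowest of all. The difference of 0.78 (SE 0.29) did not pass (limma, adjusted p = 0.151), and its 95% interval ran from 0.12 to 1.43. It was 0.50 without Control replicate 2 and 1.01 without cKO replicate 3. Lama5, a widely expressed alpha chain of mature epithelia and vessels, read 6.73, 7.19 and 6.76 against 6.84, 6.58 and 6.93. These values overlapped throughout, with a difference of 0.11 (SE 0.18, adjusted p = 0.762) and an interval from -0.30 to 0.52.

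The beta and gamma chains that can join an alpha chain showed small differences. Lamb2, a beta chain of vessel walls, neuromuscular junctions and the kidney filter, read 9.49, 9.78 and 9.79 on the cKO arrays and 9.27, 9.38 and 9.76 on the Control arrays. The highest Control array lay between the cKO arrays, and the difference was 0.21 (SE 0.15, adjusted p = 0.453, interval -0.13 to 0.56). Lamc1, the gamma chain of most laminins, had 2 probes that were detected on all arrays. The brighter read 9.43, 9.44 and 9.47 against 9.46, 9.15 and 9.53, and the dimmer read 9.07 on all 3 cKO arrays against 8.92, 8.96 and 9.18. In both the cKO arrays lay within the range of the Control arrays, with differences of 0.07 (SE 0.12) and 0.05 (SE 0.11). The wider of the 2 intervals ran from -0.21 to 0.34, so a change of Lamc1 as large as that of Lama2 lies outside it.

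Lama2 was also set against Lamc1 on the same array, which cancels a constant log2 shift of a whole array. The values had been quantile normalized first, so the difference still depends on that step. Lama2 minus Lamc1, each by its brightest probe, was -1.32, -1.28 and -1.27 on the cKO arrays and -2.21, -2.04 and -2.25 on the Control arrays. The groups did not overlap, and their means differed by 0.88, with SDs of 0.02 and 0.11 (n = 3 each). The two-sided exact permutation test gave p = 0.1, the smallest that 3 against 3 arrays allow, so this design cannot reach the threshold by that test. This pair and the one below, chosen after the values had been seen, were the 2 compared, with p = 0.1 after Benjamini-Hochberg adjustment for both (exact permutation test).

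The nidogens read higher on average on the cKO arrays without passing. The brightest probe of Nid1, which encodes the main nidogen, read 9.90, 9.74 and 9.95 against 9.41, 9.31 and 9.76. Control replicate 3 lay just above the lowest cKO array, and the other Control arrays lay below all of them. The difference was 0.37 (SE 0.14, adjusted p = 0.154), with an interval from 0.06 to 0.68. A dim Nid1 probe, detected on 3 cKO arrays and 1 Control array, read 5.96, 5.64 and 5.53 against 4.97, 5.46 and 5.14 and differed by 0.52 (SE 0.18, adjusted p = 0.135). Its groups did not overlap, but the gap was narrow and the Control values lie near the background. Nid2, the second nidogen, read 8.02, 8.49 and 8.48 against 7.83, 7.80 and 8.31. Here cKO replicate 1 lay below Control replicate 3, and the difference was 0.35 (SE 0.19, adjusted p = 0.321, interval -0.08 to 0.78).

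Counted over the 10 tested probes, 1 rose, where 3.92% of all 19210 tested probes were higher, and 0 fell, where 2.57% were lower (limma, adjusted p under 0.05). At an unadjusted p under 0.05, 4 probes were higher and 0 lower, against 11.6% and 11.2% of all tested probes. The 3 cKO arrays lay above all 3 Control arrays in 2 of the 10 probes, against 13.2% of all tested probes. The median difference was 0.28 over the 10 probes and -0.02 over all tested probes, and 9 of the 10 lay above 0, as did 46.2% of all. These 10 probes are few, and several share a gene.

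**Figure D2:**
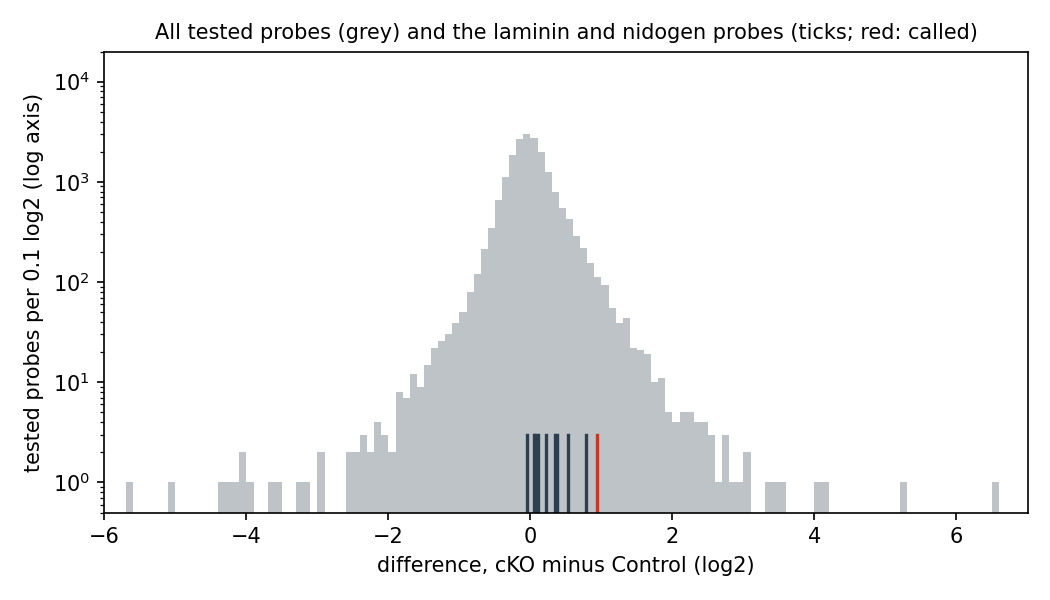
Number of tested probes (vertical axis, log scale) by difference between the groups in log2 (horizontal axis), with the 10 laminin and nidogen probes as ticks at the base. The ticks run from -0.05 to 0.94, within the range of all probes. The red tick is the Lama2 probe that passed, and 2.14% of all tested probes rose at least as much.

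One Control array stood high for these genes. Control replicate 3 was the highest of the Control arrays in 9 of the 10 tested laminin and nidogen probes, the exception being the dim Nid1 probe. Over all tested probes it was the highest in 35.0%. It was also the highest Control array for related genes such as Col4a1, Col4a2, Hspg2 and Agrn. The same held for the endothelial markers Pecam1 and Cdh5, but not for Col4a4, Emcn or Plvap. The trait is therefore not particular to the laminin and nidogen genes. Control replicate 2 was the lowest Control array in 7 of the 10, against 34.0% of all probes. Without Control replicate 3, the differences were 0.51 for Nid1 (limma, adjusted p = 0.0572), 0.51 for Nid2, 0.36 for Lamb2 and 0.98 for Lama1, and 0 of these passed. Lama2 was 0.97 without it. What sets this array apart was not tested.

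The remaining laminin chains and the laminin-like netrins were taken from a list, and the gamma chain gene Lamc3 rose most among the chains. Of 9 listed genes 6 were tested and 3 rose, whereas 4.34% of all genes tested were higher, and 0 fell, whereas 2.64% were lower (limma, adjusted p under 0.05). At an unadjusted p under 0.05 the counts were again 3 and 0, against 12.7% and 11.0% of all genes. The list median was 0.58, against -0.01 over all genes. Lamc3, the third gamma chain, read 9.40, 9.32 and 9.57 on the cKO arrays and 7.84, 8.01 and 8.02 on the Control arrays. All cKO arrays lay far above the Control arrays, and the difference was 1.47 (SE 0.12, adjusted p = 7.5e-04), a 2.78-fold rise. Its dimmer tested probe agreed in direction, at 7.92, 7.81 and 7.96 against 6.68, 6.58 and 6.88 (difference 1.18, SE 0.14, adjusted p = 0.00361). A further pair of Lamc3 probes was detected on 1 array and on 0 arrays. On the same array, Lamc3 minus Lamc1 was -0.03, -0.12 and 0.10 on the cKO arrays and -1.62, -1.14 and -1.51 on the Control arrays, a difference of 1.41 (two-sided exact permutation test, p = 0.1). The groups did not overlap, as the plot of within-array differences shows.

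**Figure D3:**
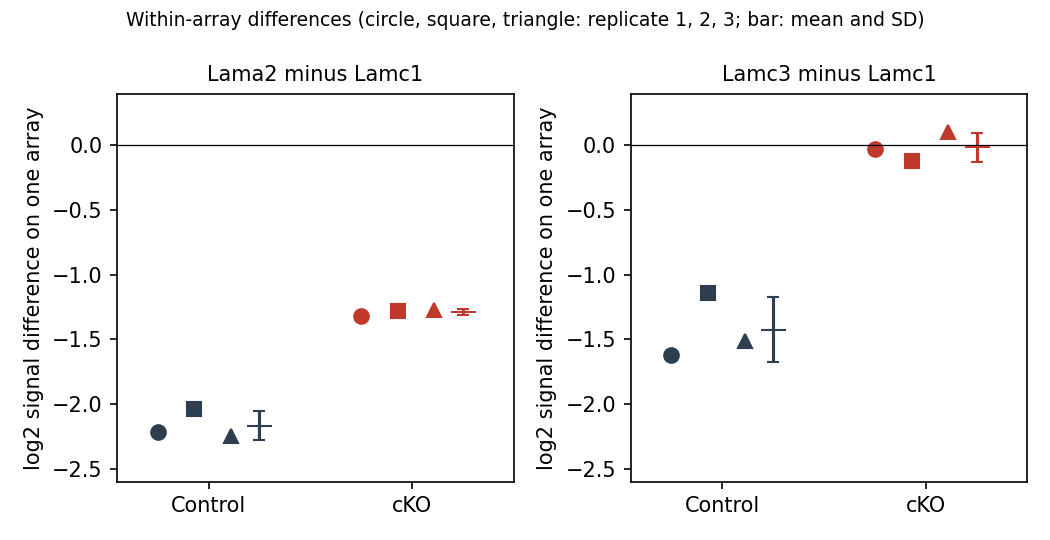
Difference in log2 signal between 2 probes on the same array (vertical axis), Lama2 minus Lamc1 on the left and Lamc3 minus Lamc1 on the right, for the 3 Control arrays (dark) and the 3 cKO arrays (red) with mean and SD. The cKO arrays lie above all Control arrays in both panels.

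Lama3 and Lamb3, an alpha and a beta chain of the laminin that anchors skin epithelium, gave little signal. Lama3 differed by -0.15 (SE 0.21, adjusted p = 0.725). Lamb3, detected on 2 cKO arrays and 0 Control arrays, was too rarely detected to test. It read 5.26, 5.04 and 5.56 against 4.86, 4.70 and 4.77, which is at least 1.05-fold higher when the dim group is set at its lowest detected signals. Netrins, which share the short-arm domains of laminins, included the other 2 genes that rose, Ntng1 (1.67, SE 0.19, adjusted p = 0.00267) and Ntn3 (1.11, SE 0.12, adjusted p = 0.00257). Their further tested probes rose as well, at 1.54 and 0.69 for Ntng1 and 0.91 for Ntn3.

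Among 24 other basement membrane components, 17 were tested, of which 2 rose and 1 fell, against 4.34% and 2.64% of all genes. At an unadjusted p under 0.05, 5 were higher and 1 lower, against 12.7% and 11.0% of all genes, and the median was 0.17. Those that rose were Col4a4, a chain of a specialised type IV collagen network (0.96, SE 0.19, adjusted p = 0.0210), and Agrn, a heparan sulfate proteoglycan that binds laminin and dystroglycan (0.51, SE 0.11, adjusted p = 0.0344). Both calls depended on single arrays, and that of Agrn also on the processing. Col4a4 did not pass without cKO replicate 3, Control replicate 2 or Control replicate 3 (adjusted p = 0.0823, 0.0746 and 0.0524). Agrn did not pass without cKO replicate 2, cKO replicate 3, Control replicate 1 or Control replicate 2 (adjusted p = 0.114, 0.132, 0.0852 and 0.103), nor under median scaling, no normalization, no filter, no intensity trend or a replicate block (adjusted p = 0.0817, 0.102, 0.0525, 0.0625 and 0.0577). It passed in 8 of the 17 alternatives. Sparc, which binds collagen, fell, from a mean of 15.39 on the Control arrays to 14.91 on the cKO arrays (difference -0.48, SE 0.07, adjusted p = 0.00622). Both means lie close to the top of the scale of these arrays. Col4a1 and Col4a2, the collagen chains of nearly all basement membranes, differed by 0.05 (SE 0.11) and -0.07 (SE 0.18), and the proteoglycan gene Hspg2 by 0.19 (SE 0.14). These 3 genes lay within or near the spread of the Control arrays, in the same way as Lamc1.

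Receptors for laminin were compared on the cell side. Of 19 listed genes 14 were tested and 0 rose or fell by their brightest probe (limma), against 4.34% and 2.64% of all genes. At an unadjusted p under 0.05, 2 were higher and 1 lower, against 12.7% and 11.0% of all genes. The median was -0.09. Itga9, the brightest, differed by -0.06 (SE 0.13), and Dag1, which encodes dystroglycan, the receptor for the Lama2 chain on muscle and Schwann cells, by -0.11 (SE 0.13). Itga7, a laminin-binding integrin of muscle, read 0.86 higher (SE 0.23, adjusted p = 0.0673) without passing. Both probes of Itgb1, the integrin beta chain shared by most laminin receptors, read lower on the cKO arrays on average, and the difference between them was not tested. The brighter differed by -0.45 (SE 0.21, adjusted p = 0.256), and the other fell, with a difference of -1.07 (SE 0.21, adjusted p = 0.0221). This second probe was picked out after its values had been seen, and it did not pass without cKO replicate 2, cKO replicate 3, Control replicate 1 or Control replicate 3 (adjusted p = 0.0746, 0.0886, 0.0689 and 0.0606). Of 12 genes that attach the laminin-binding sugar to dystroglycan, 11 were tested and 0 passed (limma), against 4.34% and 2.64% of all genes. At an unadjusted p under 0.05 the count was also 0, against 12.7% and 11.0% of all genes, and the median was 0.01. The brightest, listed as B3gnt1, a symbol that RefSeq gives to more than one current gene as an older name, differed by 0.17 (SE 0.09).

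**Figure D4:**
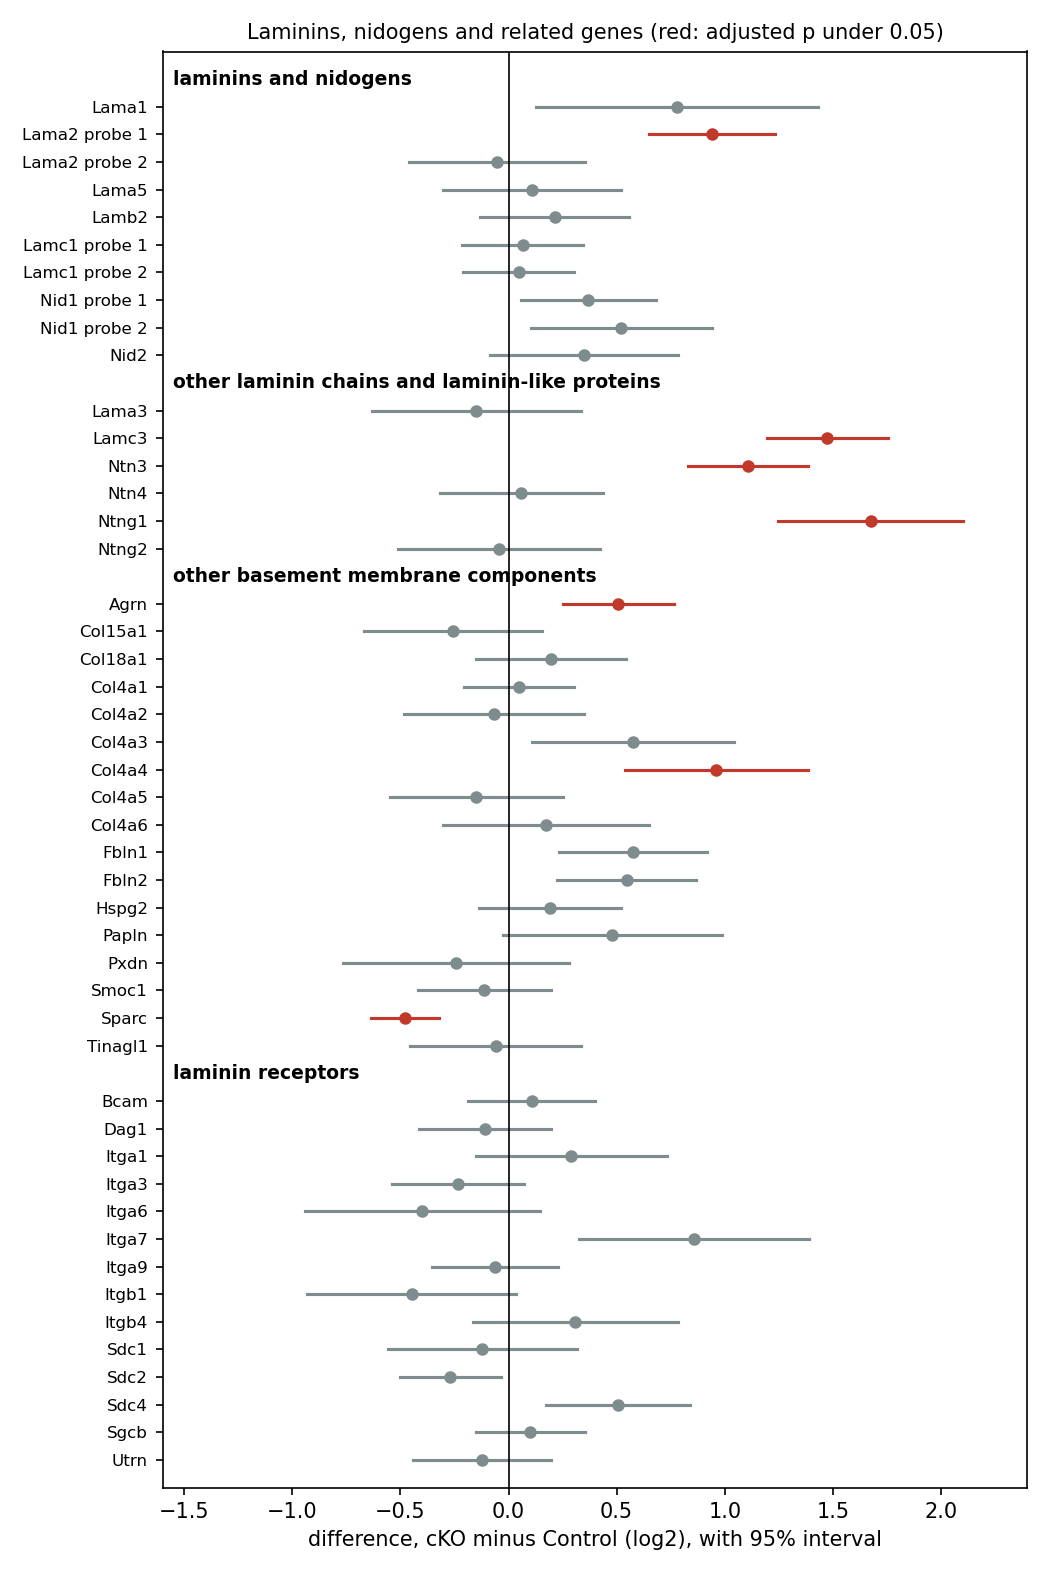
Differences in log2, cKO minus Control (horizontal axis), with 95% intervals, for the tested laminin and nidogen probes and for the brightest probe of each tested gene of related lists. Red marks an adjusted p under 0.05: Lama2, Lamc3, Ntn3, Ntng1, Agrn and Col4a4 to the right of 0 and Sparc to the left.

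Markers of cells that make basement membrane were read beside the rise of Lama2, and their part in it was not tested. Over all genes tested, 4.34% were higher and 2.64% lower (limma, adjusted p under 0.05), and the marker counts stand beside these shares. Of 9 capsule and fibroblast markers, 7 were tested and 5 rose, Lum by 1.94 and Dcn by 0.72 among them. Their summed normalized signal lay between 20187 and 24950 on the cKO arrays and between 11241 and 11575 on the Control arrays. Of 9 smooth muscle and pericyte markers 8 were tested and 2 rose, Acta2 (1.82) and Myh11 (1.37), with sums of 9102 to 13886 against 3044 to 4876. Of 6 fat cell markers 5 were tested and 4 rose, with sums of 52139 to 79352 against 24463 to 30438. The summed signals of these 3 lists lay higher on every cKO array than on any Control array, but a sum follows its brightest genes. In the smooth muscle and pericyte list the median difference was 0.15, and the other tested markers went both ways without passing. Rgs5, Pdgfrb and Notch3 differed by -0.24 (SE 0.18), -0.19 (SE 0.20) and -0.13 (SE 0.16). Cspg4, Tagln and Des differed by 0.21 (SE 0.18), 0.17 (SE 0.15) and 0.14 (SE 0.14).

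Schwann cells and muscle, where Lama2 is best known, were each represented by few detected genes. Of the Schwann cell markers reported here, Sox10 and Mbp differed by 0.07 (SE 0.18) and -0.20 (SE 0.13) without passing, and S100b, Erbb3 and Cdh19 were detected on 0 arrays. Of 5 skeletal muscle markers Ckm, Acta1, Myh4 and Tnnc2 were detected on 0 arrays and Mb differed by -0.09, with overlapping sums of 32.1 to 41.3 and 29.5 to 42.7. Of 10 endothelial markers 9 were tested and 0 passed (limma), with sums of 13446 to 16603 against 14902 to 16513. At an unadjusted p under 0.05, 1 was higher and 1 lower, against 12.7% and 11.0% of all genes. Of 6 chromaffin cell markers 2 rose, with sums of 59641 to 74278 against 36592 to 51075, which did not overlap either. The differences of all 6 lay above 0. At an unadjusted p under 0.05 (limma), 5 of them were higher, against 12.7% of all genes. Of 8 cortex markers 1 rose, with sums of 77384 to 85376 against 73637 to 88206. Over all genes, 4.34% were higher and 2.64% lower. Of 5 macrophage markers Cd68 fell by 1.13 on the log2 scale, with sums of 7215 to 7945 against 7570 to 11920.

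The genes whose values followed those of a laminin or nidogen gene most closely over the 6 arrays were sought among 9814 genes. This is a description over few arrays that include the group difference. For Lama2 they were Pnkd, Mycl and Dync1i1, at Pearson r values of 0.996, 0.995 and 0.995, and 214 genes had an r over 0.95. For Lama1 they were Pdk1, Trim8 and Hmga1, at r values of 0.98, 0.98 and 0.97. For Nid1 they were Zfp777, Ssbp2 and Pfkfb4, each at 0.99. The neighbours of Lama2 rose by 0.52 to 0.90, whereas those of Lama1 and Nid1 differed by 0.14 to 0.37 without passing (limma). As the neighbours were chosen on these same arrays, this contrast follows from the choice and is not a separate result.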

How the data were processed

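Total RNA of whole adrenal glands was extracted with a Qiagen kit and labelled as biotinylated cRNA with an Ambion kit for Illumina arrays, per the labels' protocols. The deposited signals are probe intensity values on a linear scale, not normalized between arrays. As 30.7% to 33.4% of them are negative, a background was subtracted upstream, by an unstated method. A detection p-value accompanies every signal, per the file headers. In the authors' series matrix, deposited for the same arrays, the values are linear too, with column medians of 9.98 to 10.05 and the same order of probes (Spearman rho 1). How it was normalized is not stated.

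Signals were corrected by normexp (detection p-values for the background, offset 16), which pulls the differences of dim probes toward 0, with limma 3.58.1 under R 4.3.3. Log2 values were quantile normalized. Probes detected (p-value under 0.05) on 3 arrays or more entered a two-sided limma test (lmFit, then eBayes with trend), with Benjamini-Hochberg adjustment over the 19210 probes and a threshold of 0.05. No block was used. Symbols were brought up to date with the RefSeq table of GRCm38.p6. The table held 27740 probes' symbols as current and 8037 as former names, and the 9504 left kept the file's name. A gene in a list was its tested probe with the highest mean. The named genes were all 9 laminin and nidogen genes, every gene of a list past the threshold or else its brightest, and the 3 genes most correlated with each of the 3 laminin or nidogen genes of smallest p, without clone and predicted names. Other genes of the lists and the single probe of Itgb1 were picked out after their values had been seen. Members and lists were chosen with earlier results of these data known. Promoter windows came from RefSeq. Some genes of the lists are not reported here. The fit was tested on simulated data.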

Additional observations from a re-analysis of the deposited data

How the results depend on the processing

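Alternatives were another normalization (median scaling or none), the authors' series matrix, no further background correction, a normexp offset of 50, no filter or a strict one (detection p under 0.01 on all 6 arrays), a robust variance, no intensity trend, array weights, a replicate block and leaving out each array. The count of laminin and nidogen probes called stayed at 1 higher and 0 lower under all 17. Lama2 passed in all 17 with differences from 0.81 to 1.05 (adjusted p 0.00301 to 0.0298), and the 2 Lamc3 probes passed in all 17, from 0.97 to 1.54. The other tested laminin and nidogen probes passed in 0 of them. The strict filter gave no value for the dim Lama2 and Nid1 probes, and leaving out cKO replicate 1, cKO replicate 3 or Control replicate 3 gave none for the dim Lama2 probe. Signs near 0 turned, with no call, when 1 array was left out. The dim Lama2 probe ran from -0.17 to 0.067 (positive without cKO replicate 2), Lama5 from -0.038 (without cKO replicate 2) to 0.19, the dimmer Lamc1 probe from -0.00498 (without Control replicate 1) to 0.12 and the brighter from -0.047 (without Control replicate 2) to 0.14. The replicate block left 1 laminin or nidogen call, with Lama2 at 0.94, and Agrn did not pass with it (adjusted p = 0.0577). Same-numbered arrays did not vary together (correlations of their deviations of 0.04, 0.04 and -0.01). With 3 arrays per group this cannot exclude that the numbers pair them. The lists of other laminins and netrins, other basement membrane components, laminin receptors and dystroglycan glycosylation were also counted together. Over them 5 genes rose, against 9 with array weights and between 3 and 7 when 1 array was left out. The count was 3 without cKO replicate 3 or Control replicate 2, and 1 gene fell throughout. Over all probes, 753 were higher and 494 lower, against 298 to 729 and 182 to 484 when 1 array was left out, lowest without cKO replicate 3. Signals near the background and 3 arrays per group limit what can be seen for Lama4, Lamb1 and Lamb3.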
